A study of Mus musculus with 151 samples.

Results

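A set of 10 genes that hold the oocyte in meiotic arrest or release it were followed in all 7 count tables of a mouse RNA-seq series that compared offspring conceived naturally (Natural) with offspring conceived by in vitro fertilization (IVF). The genes were chosen by name and are 10 of the 35976 gene names in each table: Mos, Wee2, Fbxo43, Ccnb1, Ccnb2, Ccnb3, Cdk1, Cdc25b, Plk1, and Cdc20. Natural offspring came from CF-1 females mated with B6/SJL males. IVF offspring came from eggs of superovulated CF-1 females and sperm of B6/SJL males, with culture to the blastocyst and transfer to recipient females, so the IVF group differs from the Natural group in superovulation, culture and transfer together. All animals were female and both groups shared the same cross. Embryonic day 13.5 (E13.5) primordial germ cells (PGCs) gave 4 Natural and 5 IVF libraries of pooled cells. Whole ovaries were sequenced at E18.5 (4 Natural, 6 IVF), at 12 weeks (4 Natural, 5 IVF) and at 39 weeks (5 of each). Single ovulated oocytes, collected after superovulation of the offspring, gave 36 Natural and 40 IVF libraries at 12 weeks and 9 and 10 at 39 weeks. Pooled cumulus cells, the somatic cells that surround the ovulated oocyte, gave 5 Natural and 5 IVF libraries at 12 weeks. The adults had been delivered by cesarean section and fostered. Natural cumulus replicate 5 shares its leading name fields with a set of IVF oocytes, 126_2, and its label's group was used. The study's methods describe the ovaries as coming from separate individuals of different litters. They also allow a limited number of littermates in adult cohorts, so adult ovaries may share a litter, which the p-values do not allow for. The labels do not say that the other replicates are separate individuals. There a p-value measures the spread between samples that may share an animal.

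Mammalian oocytes enter meiosis before birth, stop in prophase for months, resume after the ovulatory hormone surge, and stop again at metaphase II until fertilization. The switch is maturation-promoting factor, the kinase Cdk1 bound to a B-type cyclin. WEE2, an oocyte kinase, keeps Cdk1 inactive by phosphorylation and the phosphatase CDC25B reverses this at resumption. PLK1, a polo-like kinase, acts in spindle assembly and feeds the activation of Cdk1. CDC20 activates the anaphase-promoting complex, the ubiquitin ligase that destroys cyclin B. MOS, a kinase at the head of the MAPK cascade, and FBXO43, also called EMI2, an inhibitor of the same ligase, hold the second arrest. Ovulated oocytes carry stored maternal mRNA and transcribe little, and the libraries were primed on poly(A) tails, so a library records polyadenylated message.

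Total counts per library ranged from 839781 to 10879166 in 12-week oocytes, from 2820748 to 31126357 in 39-week oocytes, and from 2532824 to 43363799 in the other tables. The labelled cell types carried their defining markers. The summed level of 10 oocyte markers lay between 15827 and 31999 CPM (counts scaled to the TMM-adjusted library size) in the 12-week oocyte sets, and the 10 granulosa and cumulus markers summed to at most 118 CPM there. In cumulus libraries the same granulosa and cumulus list summed to between 1503 and 2743 CPM and the oocyte list to at most 38.1 CPM. In PGCs 9 of 10 oocyte markers averaged below 1 CPM in both groups, and all 6 germ cell markers were above it. In whole ovaries, fewer oocytes and less RNA per oocyte cannot be told apart from the counts alone. On stained, fixed ovaries the study saw no difference in germ cell number at E18.5. It counted fewer primordial, primary and secondary follicles in IVF ovaries at 12 and 39 weeks. The oviduct and epithelium list was uneven among adult ovaries, with sums of 3418 to 7668 CPM in Natural and 97.2 to 3080 CPM in IVF ovaries at 12 weeks, and 1 IVF ovary at 39 weeks, replicate 1, at 8798 CPM beside 52.4 to 235 CPM in the other ovaries of that age. Whether this list had a part in the ovary results was not tested.

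Some single oocyte libraries stood apart from the rest. With the 10 genes left out, 10 of 76 libraries at 12 weeks correlated with the median profile of their table at 0.602 to 0.764, and the other 66 at 0.917 or above. They were 4 of 36 Natural libraries and 6 of 40 IVF libraries. They came from 5 of the 10 name sets, that is, groups of oocytes whose library names share their leading fields, with 2 of 8 in set 35_3, 1 of 8 in 92_4, 1 of 7 in 92_5, 4 of 8 in 126_4, and 2 of 8 in 127_2. At 39 weeks 2 of 9 Natural libraries, replicates 6 and 9, lay at 0.737 and 0.683, and the other 17 oocytes, all 10 IVF oocytes among them, at 0.842 or above. These 12 libraries are called the divergent libraries below, and the fold changes and ratios in oocytes are given with and without them.

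The order of the levels differed by cell type. Mos, Wee2 and Fbxo43 were oocyte messages. Mos averaged 1163 ± 273 CPM (SD, n = 5 name sets) in Natural and 1221 ± 399 CPM in IVF oocytes at 12 weeks, but no ovary library exceeded 13.5 CPM and no PGC library exceeded 0.593 CPM. Wee2 averaged 1045 ± 153 and 956 ± 110 CPM in the same sets, at most 11.4 CPM in any ovary and at most 1.77 CPM in any PGC library. Fbxo43 averaged 517 ± 52.9 and 456 ± 32.7 CPM in oocytes and stayed at or below 8.96 CPM in PGCs and ovaries. The tables were normalized separately, so these are levels within each table set side by side.

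**Figure D1:**
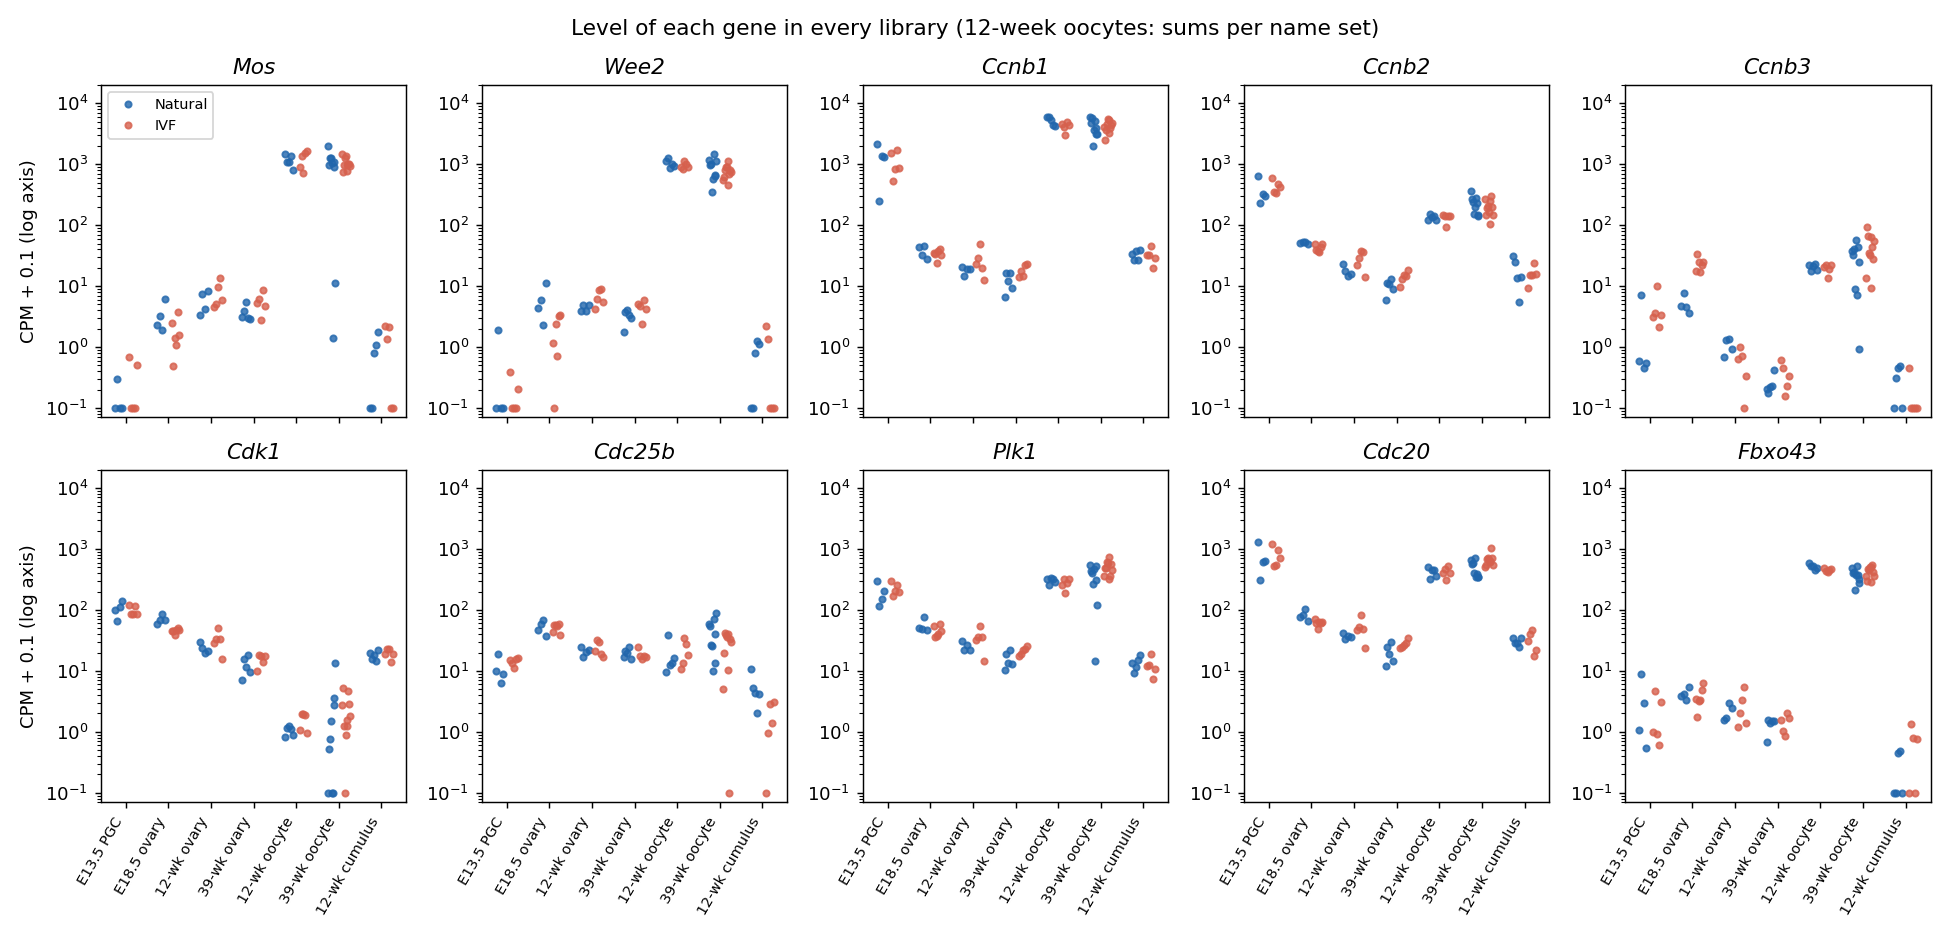
Level of each gene in every library, as CPM plus 0.1 on a log axis, for the 7 tables; each point is a library, or a summed name set for 12-week oocytes, blue for Natural and red for IVF. Mos, Wee2 and Fbxo43 are high in oocytes alone, whereas Cdk1 is lowest in oocytes, and the 2 low Natural points for Mos at 39 weeks are the divergent libraries.

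Cdk1 ran the other way. It averaged 105 ± 30.7 CPM (SD, n = 4) in Natural and 99.2 ± 18.1 CPM (n = 5) in IVF PGCs, 70.3 ± 11.1 and 45.2 ± 3.81 CPM in E18.5 ovaries, and 0.944 ± 0.175 and 1.46 ± 0.495 CPM (n = 5 sets each) in 12-week oocytes. Even a summed set of oocytes held at most 87 Cdk1 counts, so the oocyte values for this gene rest on few counts. Over all groups the Cdk1 ranges of PGCs lay above those of every ovary and cumulus group except Natural E18.5 ovaries, which overlapped them, and every 12-week oocyte set lay below every ovary, PGC and cumulus library. Ccnb1, Ccnb2, Cdc20 and Plk1 were high in both oocytes and PGCs. Ccnb1 averaged 5178 ± 820 CPM in Natural oocyte sets and 1273 ± 780 CPM in Natural PGCs, with no overlap between the 2 ranges. Ccnb2 had the reverse order, with 136 ± 13.5 CPM in oocytes and 376 ± 186 CPM in PGCs, also without overlap. Cdc20, at 419 ± 75.4 and 718 ± 425 CPM, and Plk1, at 305 ± 31.7 and 192 ± 79.6 CPM, overlapped between the 2 cell types.

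Divided by exon length, the levels within Natural 12-week oocytes followed the order Ccnb1, Mos, Wee2, Cdc20, Plk1, Fbxo43, Ccnb2, Cdc25b, Ccnb3, and Cdk1. In CPM per kilobase, Ccnb1 stood at 1228, Mos at 803, Wee2 at 333, Cdc20 at 224 and Cdk1 at 0.191. Mos, at 546 to 1020, overlapped Ccnb1, at 1015 to 1439, by a narrow margin. Cdc20 fell just short of Wee2, at 172 to 268 against 280 to 401 CPM per kilobase. Plk1 and Fbxo43 overlapped, as did Cdc25b and Ccnb3, and each of the remaining neighbors in this order was separated by the ranges of its 5 sets. The order of Cdc25b and Ccnb3 turned on the divergent libraries described above. Without them Cdc25b stood at 2.98 (2.44 to 3.24) and Ccnb3 at 4.65 (4.18 to 5.08) CPM per kilobase, with no overlap, and the other genes kept their order in the means.

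The 3′ ends of the 4 highest messages are shown because the libraries were primed on poly(A) tails. Each run is the 30 bases that end with the polyadenylation signal of the transcript numbered 201 in GENCODE release M21 (GRCm38), with the signal in capitals. Capitals upstream mark TTTTAT or TTTTAAT, letters of the cytoplasmic polyadenylation element through which stored messages gain a longer tail during maturation, searched on the transcript strand.
Mos, chr4:3870673-3870702, minus strand: taccactagggcatatttttaggaAATAAA
Wee2, chr6:40466764-40466793, plus strand: cataTTTTAATccagatcattgtaAATAAA
Ccnb1, chr13:100778668-100778697, minus strand: gcaatatggagactttatgttgctAATAAA
Cdc20, chr4:118432917-118432946, minus strand: tcttgtTTTTATTTTATtttttctAATAAA
Of the 10 genes, Wee2 and Cdc20 held one of these motifs in this window. Over all protein-coding transcripts with such a window, 2003 of 29522 (6.78%) did. A match is a description of the letters and not a site. No match says only that these letters are not in this window of this transcript, and nothing about the sequence further upstream.

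Each gene lies on GRCm38 as annotated in GENCODE release M21, and the counts are of reads over its exons. Mos is a single-exon gene at chr4:3870657-3872105, Wee2 at chr6:40439088-40466813, Fbxo43 at chr15:36150060-36164884, Ccnb1 at chr13:100778650-100786570, Ccnb2 at chr9:70407692-70421547, Ccnb3 at chrX:6979652-7041619, Cdk1 at chr10:69335146-69352938, Cdc25b at chr2:131186949-131198497, Plk1 at chr7:122159439-122169873, and Cdc20 at chr4:118432901-118437352. Ccnb1 shares reads with copies of itself. Of its distinct 50-base words, 18.9% also occur in the processed pseudogene Ccnb1-ps and 13.4% in Gm12856. For Cdc20 10.3% occur in Gm7856, and for Plk1 6.56% in Plk-ps1. Cdc20 also overlaps exons of Elovl1 by 53 bases, Cdc25b those of Spef1 by 92 bases, and Plk1 those of Gm44985 by 156 bases, each on the opposite strand. Levels of these 4 genes are uncertain to that extent, because the counting rule for shared reads and strand is not given in the sources used here.

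Whether IVF altered the stored messages was first asked in 12-week oocytes, with counts summed per name set. Natural set names begin with 35 or 92 and IVF set names with 126 or 127. Sets that share a first field may share an origin, which the SEs, intervals and p-values below do not allow for. None of the 10 genes passed the test in edgeR, where 4 of 14444 genes (0.0277%) were called, and none had an unadjusted p below 0.05, as 6.67% of all genes did. DESeq2 also called 0 of the 10 genes. Their median log2 fold change was -0.05, against 0.02 over all genes tested. Where the text speaks of a called gene, the Benjamini-Hochberg adjusted p over all genes of that table was below 0.05.

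Among the arrest genes, Mos stood at 1478, 1082, 1082, 1381 and 791 CPM in the Natural sets and at 890, 1343, 719, 1508 and 1644 CPM in the IVF sets. The sets overlapped over most of their range. The log2 fold change was 0.07 ± 0.23 (SE), with a 95% interval of -0.43 to 0.57 (edgeR adjusted p = 0.976), and 0.15 ± 0.19 without the divergent libraries. Wee2 lay between 879 and 1258 CPM in Natural and between 841 and 1114 CPM in IVF sets, a log2 fold change of -0.13 with an interval of -0.41 to 0.15, or -0.10 without the divergent libraries. Fbxo43, the inhibitor of the ligase, lay between 446 and 589 CPM in Natural and between 417 and 497 CPM in IVF sets, with 2 of 5 IVF sets below every Natural set. Its log2 fold change was -0.18, with an interval of -0.42 to 0.06, and -0.09 without the divergent libraries.

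Of the cyclins, Ccnb1 gave 5882, 6067, 5252, 4409 and 4279 CPM in Natural sets and 4501, 4020, 3033, 4951 and 4452 CPM in IVF sets. The lowest 2 values were both IVF and the highest 3 were all Natural. This was the smallest p among the 10 genes, with a log2 fold change of -0.30 ± 0.15 (interval -0.63 to 0.02, edgeR adjusted p = 0.775), and without the divergent libraries it was -0.17 ± 0.12. Ccnb2 differed by -0.03 on the log2 scale, with an interval of -0.34 to 0.28, and Ccnb3 by -0.07, with an interval of -0.43 to 0.28. Without the divergent libraries these were 0.06, on the other side of 0, and -0.04. Cdk1, at about 1 CPM, had a log2 fold change of 0.63 with all libraries and of 0.08 without the divergent ones, which in the IVF group held 1.33 to 9.46 CPM of Cdk1.

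Intervals of the activators also included 0. Cdc25b lay between 9.48 and 39.3 CPM in Natural and between 10.5 and 34.6 CPM in IVF sets, with the highest set of each group, 35_3 and 126_4, being one that held divergent libraries. Without those libraries its range narrowed to 9.09 to 12.1 CPM in Natural and 10.1 to 17.8 CPM in IVF sets, with a log2 fold change of 0.18 (edgeR adjusted p = 0.905). Plk1 averaged 305 ± 31.7 and 271 ± 55.1 CPM, a log2 fold change of -0.17 with an interval of -0.50 to 0.16, or -0.12 without the divergent libraries. Cdc20 averaged 419 ± 75.4 and 427 ± 84.8 CPM, a log2 fold change of 0.03 with an interval of -0.33 to 0.38, or 0.12 without them. No gene of the 10 was called without the divergent libraries either, where edgeR called 6 of 14081 genes. The smallest edgeR adjusted p among the 10 was then 0.870, for Ccnb1.

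Mos separated the divergent libraries from the rest. In the 10 divergent oocytes at 12 weeks Mos lay between 1.6 and 14.8 CPM, and in the other 66 between 438 and 2352 CPM, with no oocyte between. At 39 weeks the 2 divergent libraries held 1.29 and 11.1 CPM of Mos, and the other 17 held 740 to 2009 CPM. Mos itself was not used to define them.

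**Figure D2:**
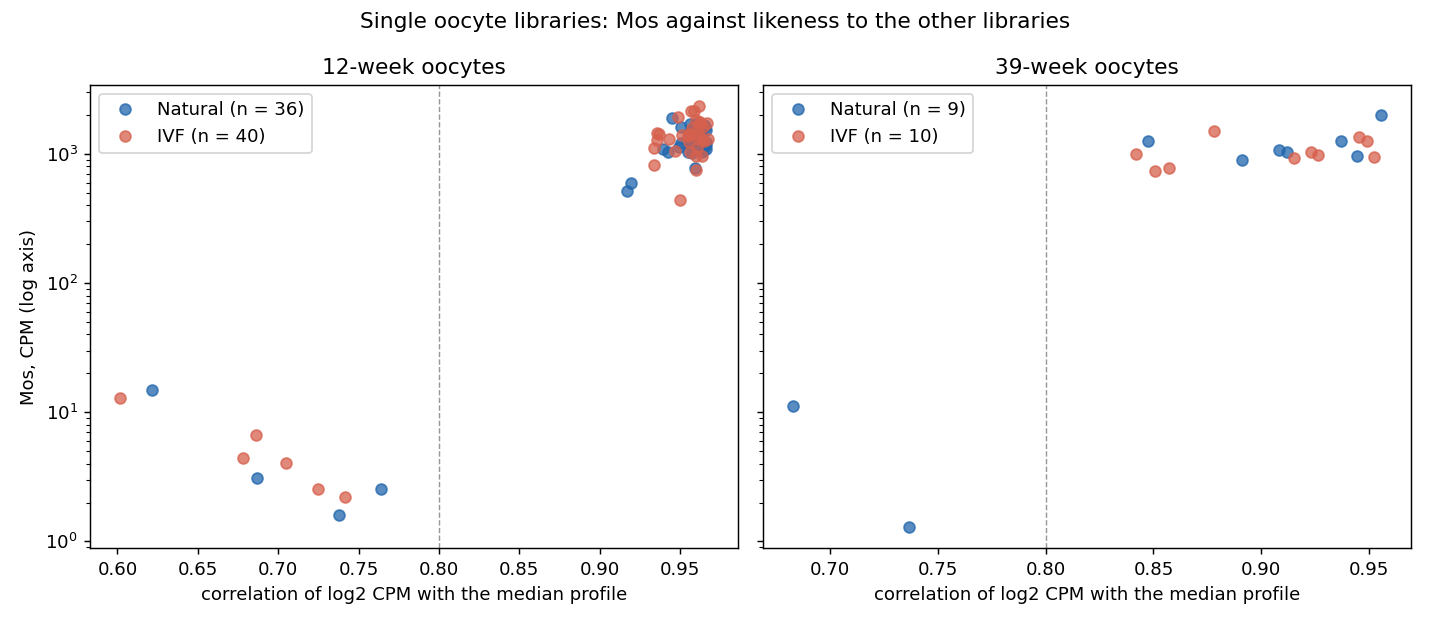
Mos in CPM on a log axis against the correlation of each single oocyte library with the median profile of its table, the 10 genes left out; blue points are Natural and red points IVF, and the dashed line is at 0.8. The 10 libraries left of the line at 12 weeks and the 2 at 39 weeks lie at or below 14.8 CPM, and every other library lies at or above 438 CPM.

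Other genes of the 10 moved with it in these libraries. Plk1 lay between 1.85 and 77.7 CPM in the divergent 12-week oocytes and between 192 and 427 CPM in the rest. Cdc20 lay between 14.1 and 98.4 CPM against 310 to 658 CPM. Wee2 was high instead, at 1203 to 2333 CPM, with a median of 944 CPM in the other 66 oocytes. Both Plk1 and Cdc20 separated the divergent libraries fully, and Wee2 nearly so, with the rest reaching 1395 CPM.

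Cdc25b lay between 19.2 and 194 CPM in the divergent 12-week oocytes and between 5.17 and 26.5 CPM in the rest. Ccnb1 spread on both sides, from 623 to 10221 CPM, beyond both ends of the range of 3233 to 6667 CPM in the rest. The 4 Natural and 6 IVF divergent libraries were not alike in every gene. Ccnb1 lay between 623 and 3165 CPM in the IVF ones, and at 10221, 6895, 1911 and 6468 CPM in the Natural ones. Cdk1 was at most 0.844 CPM in the Natural ones. Ccnb3 fell below the rest in all but 1 of the 10, reaching at most 12.9 CPM, with the rest at 11.2 to 35.1 CPM.

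The same direction was seen in part at 39 weeks. Plk1 was at 14.5 and 122 CPM in the divergent oocytes, below the 267 to 744 CPM of the rest, and Cdc25b was at 69.7 and 90.7 CPM, above the 0 to 58.7 CPM of the rest. Cdc20, at 342 and 350 CPM, was near the lowest of the other 17 oocytes, which reached down to 341 CPM. Wee2, at 1470 and 1125 CPM, stood beside a highest value of 1175 CPM in the rest.

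Of the 10 markers of the oocyte list, 6 separated the divergent 12-week libraries from the rest, all being lower there (Gdf9, Zp1, Zp3, Ooep, Oosp1 and Padi6), and 4 overlapped the rest (Bmp15, Zp2, Nlrp5 and Npm2). Gdf9, an oocyte growth factor, was at 109 to 477 CPM in the divergent 12-week libraries and at 9328 CPM or more in the rest. Ooep and Padi6, both of the subcortical maternal complex or lattice, were at 11.1 to 163 and 46.0 to 158 CPM, below 296 and 335 CPM, the lowest of the rest. Bmp15, at 1278 to 5767 CPM, overlapped the rest, at 2647 to 6204 CPM. Genes detected numbered 10905 to 13476 in the divergent libraries and 11503 to 15946 in the rest. Their total counts, 839781 to 4991194, lay in the lower part of the range of the rest, which ran from 2591803 to 10879166. At 39 weeks the 2 divergent libraries had 12276020 and 18374296 total counts, within the range of the rest, 2820748 to 31126357. The part of depth in these differences was not tested.

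**Figure D3:**
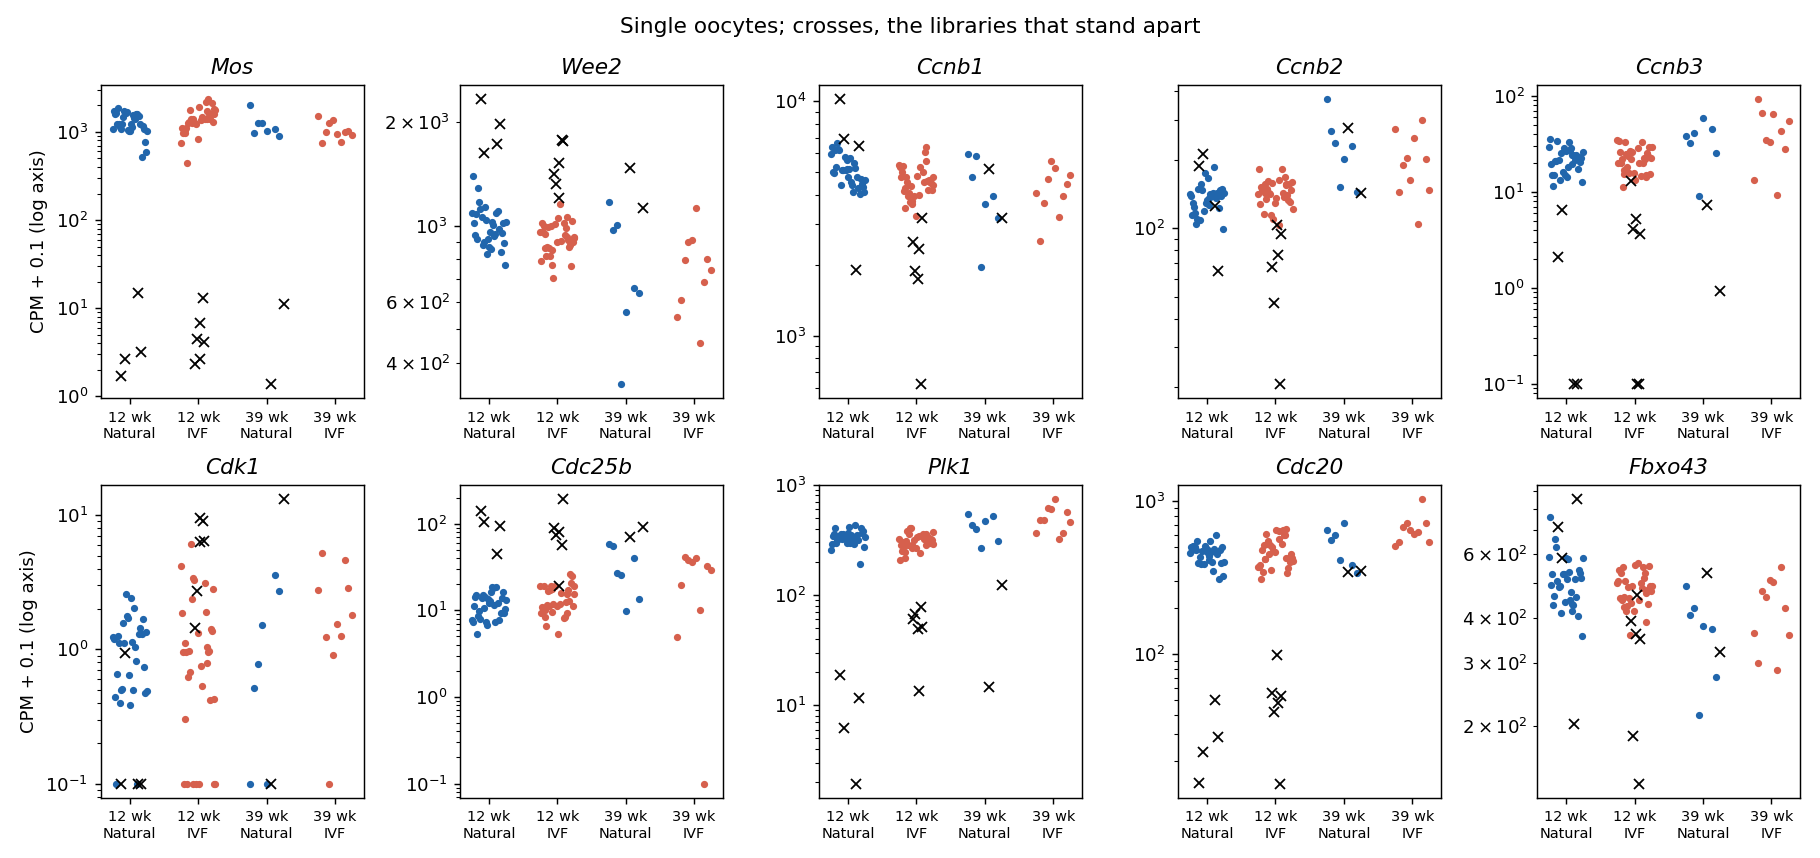
Each single oocyte as CPM plus 0.1 on a log axis for the 10 genes, by age and group; blue is Natural, red is IVF, and black crosses are the 12 divergent libraries. The crosses lie below the points for Mos and Plk1, above most points for Wee2 and Cdc25b, and across the range for Ccnb1.

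Among the 66 other 12-week oocytes the genes varied by unequal amounts. The coefficient of variation was 12.7% for Wee2, 13.7% for Ccnb2, 14.0% for Fbxo43, 15.3% for Plk1, 15.9% for Ccnb1, and 18.4% for Cdc20. It was 27.9% for Mos, 28.8% for Ccnb3, 35.9% for Cdc25b, and 98.2% for Cdk1. The last 3 are also the least abundant, so that counting error is a larger share of their spread, but Mos is not. These coefficients were taken over both groups and all sets without centering, so they include differences between sets. Without the divergent libraries, Mos ran from 818 to 1423 CPM over Natural sets and from 857 to 1695 CPM over IVF sets. As a description over these oocytes, after centering within each name set, Wee2 and Fbxo43 had the highest correlation of log2 CPM (Pearson r = 0.724, Spearman rho = 0.720, n = 66 oocytes that share library preparation and scaling within sets), followed by Ccnb1 and Wee2 (r = 0.479). Cdk1 and Cdc20 had the lowest (r = -0.141).

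At 39 weeks the labels name no donor, so each group counts as 1 sample and no test was made. By the mean over oocytes, 2 of 10 genes differed by more than 1.5-fold, in a table where 3808 of 10940 genes (34.8%) did. Ccnb3 was higher in IVF oocytes, with a mean of 43.8 against 28.4 CPM (ratio 1.54), and Cdc25b was lower, with 25.3 against 43.3 CPM (ratio 0.584). Without the 2 divergent Natural libraries these ratios were 1.24 and 0.771. Cdk1 was then the only one of the 10 genes past 1.5-fold, at a mean of 2.14 CPM in IVF and 1.23 CPM in the remaining 7 Natural oocytes. The share of all genes past 1.5-fold without these libraries was not recorded.

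The arrest genes at 39 weeks overlapped between the groups. Mos ranged from 740 to 1497 CPM in the 10 IVF oocytes, with a median of 997 CPM. In the 9 Natural oocytes it ranged from 1.29 to 2009 CPM, with a median of 1036 CPM. The ratio of means was 1.11 with all libraries and 0.866 without the 2 divergent ones, so the direction turned on them. Wee2 had medians of 770 CPM in IVF and 972 CPM in Natural oocytes and a ratio of 0.857, or 0.989 without them. Fbxo43 had medians of 441 and 379 CPM and a ratio of 1.12, or 1.16 without them.

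Ccnb1 had a ratio of 1.01 with or without the divergent libraries, with 2535 to 5581 CPM in IVF and 1970 to 5951 CPM in Natural oocytes. Ccnb2 had a ratio of 0.879, or 0.862 without them. Cdc20 and Plk1 were the higher of the activators in IVF oocytes. Cdc20 ran from 513 to 1035 CPM, with a median of 641 CPM, in IVF oocytes and from 341 to 716 CPM, with a median of 410 CPM, in Natural ones. Plk1 ran from 324 to 744 CPM in IVF oocytes and from 14.5 to 541 CPM in Natural ones, and 4 of 10 IVF oocytes exceeded every Natural one. Their ratios were 1.37 and 1.47, and 1.27 and 1.19 without the divergent libraries. Set beside the 12-week means, which belong to a table normalized on its own, and without the divergent libraries of both ages, Ccnb3 stood at 21.2 CPM at 12 weeks and 35.4 CPM at 39 weeks in Natural oocytes, and at 20.6 and 43.8 CPM in IVF oocytes. Plk1 stood at 317 and 419 CPM in Natural and at 293 and 500 CPM in IVF oocytes. The values at 39 weeks were the larger in both groups, as for Ccnb2, Cdc20, Cdc25b and Cdk1. Mos, Wee2, Fbxo43 and Ccnb1 were smaller at 39 weeks. Wee2 stood at 954 and 766 CPM in Natural and at 891 and 758 CPM in IVF oocytes. Mos stood at 1216 and 1215 CPM in Natural and at 1347 and 1052 CPM in IVF oocytes. The 12-week means are over name sets and the 39-week means over single oocytes.

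In E18.5 ovaries, where oocytes sit in late prophase and the first follicles form, 1 of the 10 genes rose and 1 fell, in a table where edgeR called 891 of 16415 genes (5.43%), 2.67% higher and 2.75% lower in IVF. Of the 10 genes, 5 had an unadjusted p below 0.05, beside 24.1% of all genes tested. The median log2 fold change of the 10 genes was -0.29, against 0.00 for all genes.

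Ccnb3, the cyclin that drives exit from the first meiotic division and is also made in early prophase, rose. It stood at 4.58, 7.71, 4.49 and 3.52 CPM in the 4 Natural ovaries. In the 6 IVF ovaries the lowest value was 16.9, the median 23.5 and the highest 34.1 CPM. All 6 IVF ovaries lay above all 4 Natural ovaries, as was the case for 4.28% of all genes tested. The log2 fold change was 2.21 ± 0.26 (SE; interval 1.65 to 2.77, edgeR adjusted p = 0.00553). It had the third smallest p of the table. Leaving out each ovary in turn gave log2 fold changes between 2.06 and 2.48.

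Cdk1 fell. It stood at 58.2, 68.8, 85.1 and 69.4 CPM in Natural ovaries and ran from 38.7 to 50.3 CPM, with a median of 45.5 CPM, in IVF ovaries. Every IVF ovary was below every Natural ovary, a pattern that 4.33% of all genes tested showed. The log2 fold change was -0.64 ± 0.12 (interval -0.90 to -0.38, edgeR adjusted p = 0.0143). With the replicate number as a block, over the 4 numbers that both groups share, the adjusted p was 0.194 at a log2 fold change of -0.69.

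**Figure D4:**
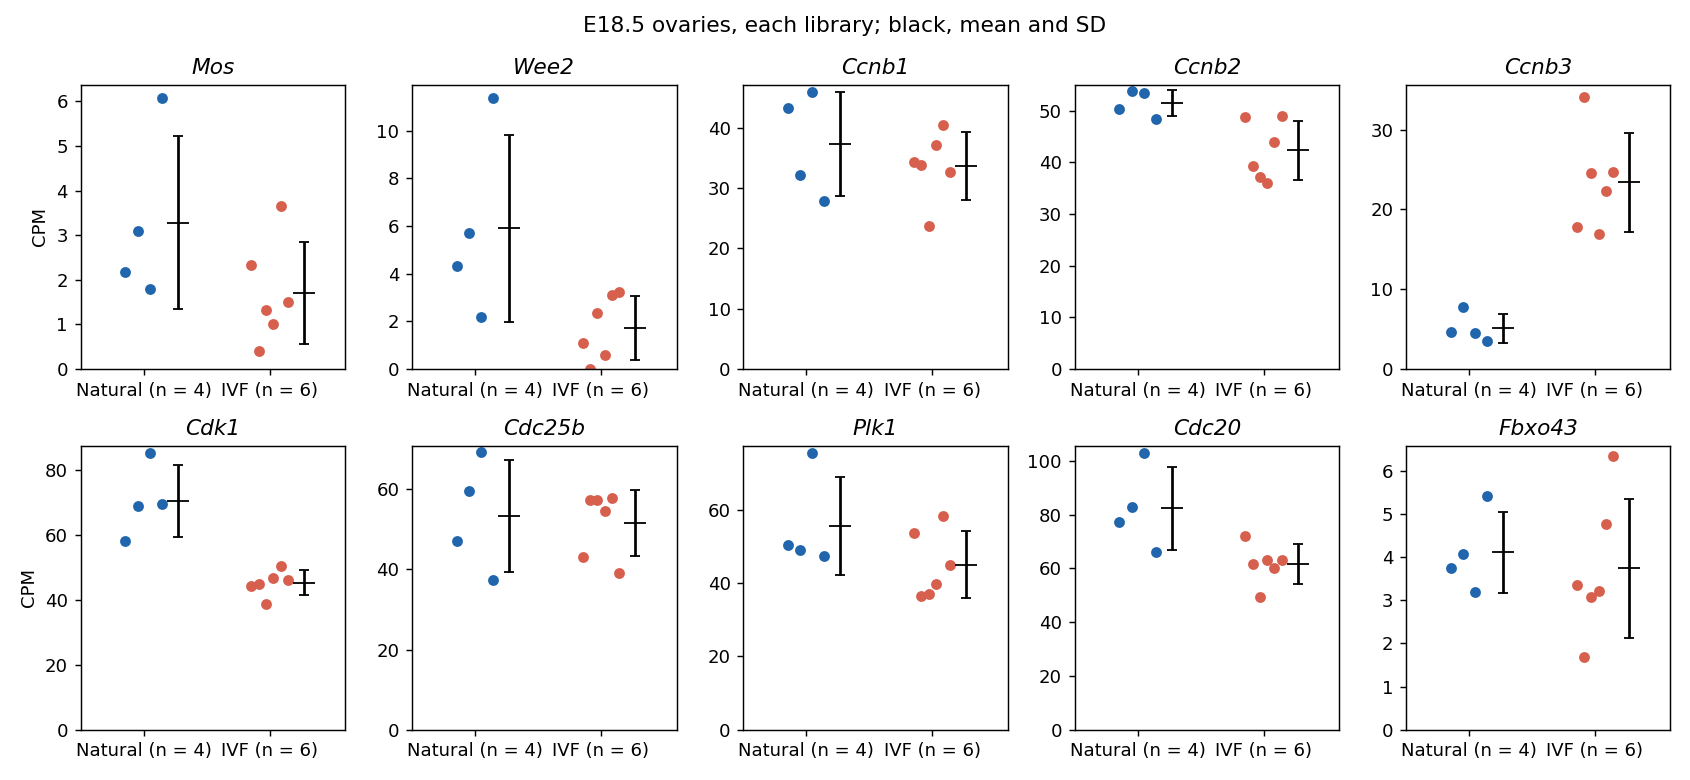
CPM of the 10 genes in each E18.5 ovary, Natural in blue (n = 4) and IVF in red (n = 6), with the mean and SD in black. Ccnb3 and Cdk1 are the only panels in which the groups do not overlap, in opposite directions.

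The other 8 genes were not called at E18.5. Cdc20 came nearest, at 82.3 ± 15.5 CPM (SD, n = 4) in Natural and 61.6 ± 7.37 CPM (n = 6) in IVF ovaries, a log2 fold change of -0.42. Its adjusted p was 0.0841 by edgeR but 0.0484 by DESeq2. Wee2 was at 4.33, 5.71, 2.19 and 11.4 CPM in Natural ovaries and ran from 0 to 3.23 CPM in IVF ovaries. Its log2 fold change of -1.80 had an interval of -3.24 to -0.36 and an edgeR adjusted p of 0.123. Mos averaged 3.28 and 1.70 CPM, a log2 fold change of -0.98 (edgeR adjusted p = 0.262). Ccnb2 and Plk1 had log2 fold changes of -0.28 and -0.30, Ccnb1 and Fbxo43 both of -0.15, and Cdc25b of -0.05.

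Markers of growing oocytes were lower in IVF ovaries of this age. Of the 9 tested genes of the oocyte list 0 rose and 5 fell: Gdf9, Ooep, Padi6, Zp1 and Zp3, with log2 fold changes between -3.14 and -2.14. The summed list ran from 190 to 750 CPM in Natural and from 10.05 to 162 CPM in IVF ovaries, without overlap. The replicates lowest in this sum among IVF ovaries, 2 and 4, with 10.05 and 23.8 CPM, were also the lowest for Wee2, at 0 and 0.601 CPM. IVF replicate 1, with the highest sum of the group, 162 CPM, held 1.09 CPM of Wee2. For Ccnb3, replicates 2 and 4 were the highest and the lowest of the IVF ovaries, at 34.1 and 16.9 CPM. Germ cell genes of the earlier stage were mixed, with Pou5f1 called lower and Dazl, a germ cell RNA-binding protein, at a log2 fold change of 0.65 (edgeR adjusted p = 0.102). Sycp3, a protein of the synaptonemal complex, was at 60.4 ± 21.0 and 55.7 ± 14.9 CPM. Of the 10 genes of dividing cells none was called, and their sum ran from 974 to 1507 CPM in Natural and from 1046 to 1376 CPM in IVF ovaries. Of the 6 oviduct and epithelium genes, Msln, a mesothelial surface protein, fell (log2 fold change -1.11, edgeR adjusted p = 0.0129) and 5 had log2 fold changes below 0, with sums of 346 to 670 CPM in Natural and 260 to 460 CPM in IVF ovaries. The part of these lists in the values of the 10 genes was not tested. The labels give E18.5 for both groups, whereas the study's text gives the same day in one place and a later day for IVF pregnancies in another, so a difference in gestational day was not tested.

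The promoters of the 2 called genes are shown in full, from 250 bases before to 50 bases after the RefSeq start site on GRCm38.p6, both on the minus strand and written 5′ to 3′. Capitals mark CCAAT or its reverse complement ATTGG, the letters bound by NF-Y, and TTTGAA or its reverse complement TTCAAA, the letters of the cell cycle genes homology region. Both were searched on both strands and do not overlap each other.
Ccnb3, chrX:7041570-7041869: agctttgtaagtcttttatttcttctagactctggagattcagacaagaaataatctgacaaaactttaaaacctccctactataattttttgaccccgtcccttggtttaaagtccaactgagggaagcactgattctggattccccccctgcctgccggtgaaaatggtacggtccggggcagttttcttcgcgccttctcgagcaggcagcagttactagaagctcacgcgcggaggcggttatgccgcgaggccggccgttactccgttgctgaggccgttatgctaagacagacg
Cdk1, chr10:69352863-69353162: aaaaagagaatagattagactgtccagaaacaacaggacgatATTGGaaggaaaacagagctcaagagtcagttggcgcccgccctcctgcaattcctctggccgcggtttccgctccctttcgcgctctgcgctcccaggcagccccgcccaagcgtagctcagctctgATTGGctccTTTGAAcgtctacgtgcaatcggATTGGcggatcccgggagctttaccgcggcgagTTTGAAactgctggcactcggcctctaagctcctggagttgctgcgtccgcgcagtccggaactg
Cdk1 held 3 CCAAT and 2 TTTGAA matches, the nearest being ATTGG at -48 and TTTGAA at -15 from the start site. Ccnb3 held 0 of either. Of 32851 promoters of this length, 37.4% held CCAAT, 17.9% held TTTGAA, and 6.95% held both. Promoters of 8 of the 10 genes were in the table used, and 4 of them, those of Ccnb2, Cdk1, Cdc20 and Plk1, held both motifs. No match in a window says that these letters are not in it, and nothing about the factor.

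In adult ovaries none of the genes was called. At 12 weeks edgeR called 1 of 17628 genes (0.00567%) and none of the 10, of which 2 had an unadjusted p below 0.05, beside 14.4% of all genes tested. DESeq2 called 0 of the 10. The log2 fold change was above 0 for 9 of 10 genes, beside 51.5% of all genes, with a median of 0.45 against 0.01. Ccnb2 averaged 17.7 ± 3.76 CPM (SD, n = 4) in Natural and 27.8 ± 10.0 CPM (n = 5) in IVF ovaries, a log2 fold change of 0.63 (interval 0.01 to 1.25, edgeR adjusted p = 0.338). Wee2 gave 3.87, 4.74, 3.81 and 4.8 CPM in Natural and 4.14, 5.99, 8.59, 8.79 and 5.38 CPM in IVF ovaries, with 4 of 5 IVF ovaries above all Natural ones (edgeR adjusted p = 0.342). Ccnb3 was the exception, at 0.972 and 0.458 CPM and a log2 fold change of -0.87. IVF replicate 3 was the highest of all 9 ovaries for Ccnb1, Cdk1, Cdc20 and Plk1, and IVF replicate 5 the lowest. Replicate 3 also had the highest sum of dividing cell genes, 981 CPM, and replicate 5 the lowest, 240 CPM, beside 325 to 453 CPM in Natural ovaries. All 10 oocyte markers had log2 fold changes above 0 as well, with sums of 164 to 387 CPM in Natural and 221 to 534 CPM in IVF ovaries, and none was called.

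At 39 weeks edgeR called 45 of 17186 genes (0.262%), and 0 of the 9 genes tested, of which 2 had an unadjusted p below 0.05, beside 19.2% of all genes. DESeq2 called 0. The log2 fold change was above 0 for 8 of 9 genes, beside 53.5% of all genes, with a median of 0.50 against 0.03. Ccnb1 was at 6.41, 16.1, 12.0, 16.3 and 9.29 CPM in Natural and at 14.2, 17.3, 14.5, 22.0 and 23.0 CPM in IVF ovaries, a log2 fold change of 0.60 (interval 0.01 to 1.18, edgeR adjusted p = 0.254). The groups overlapped, with 3 of 5 IVF ovaries above all Natural ones. Ccnb2 and Plk1 had log2 fold changes of 0.51 and 0.45, Mos and Wee2 of 0.61 and 0.50, and Cdc25b of -0.09. Ccnb3, at most 0.506 CPM, was too low to be tested. All 10 dividing cell genes had log2 fold changes above 0 as well at each adult age, with a median of 0.51 at 12 and 0.40 at 39 weeks, and none of them was called. The granulosa and cumulus list summed to 1205 to 1775 CPM in Natural and 1614 to 3721 CPM in IVF ovaries at 12 weeks, and to 609 to 1725 and 1075 to 3383 CPM at 39 weeks, where 7 of 9 tested genes were above 0 with a median log2 fold change of 0.92, none called. The part of these lists in the ovary values of the 10 genes was not tested. One Natural ovary of this age, replicate 5, is labelled both as 39 and as 40 weeks.

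The IVF effect did not pass a test of difference between the ages for any of the 10 genes, in a joint fit where edgeR called 3 of 19066 genes (0.0157%), and DESeq2 called 0 of the 10. The largest difference was that of Ccnb3, 1.56 ± 0.84 on the log2 scale (39 minus 12 weeks, adjusted p = 0.311), with an unadjusted p of 0.0783. For Plk1 it was 0.00 ± 0.38.

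**Figure D5:**
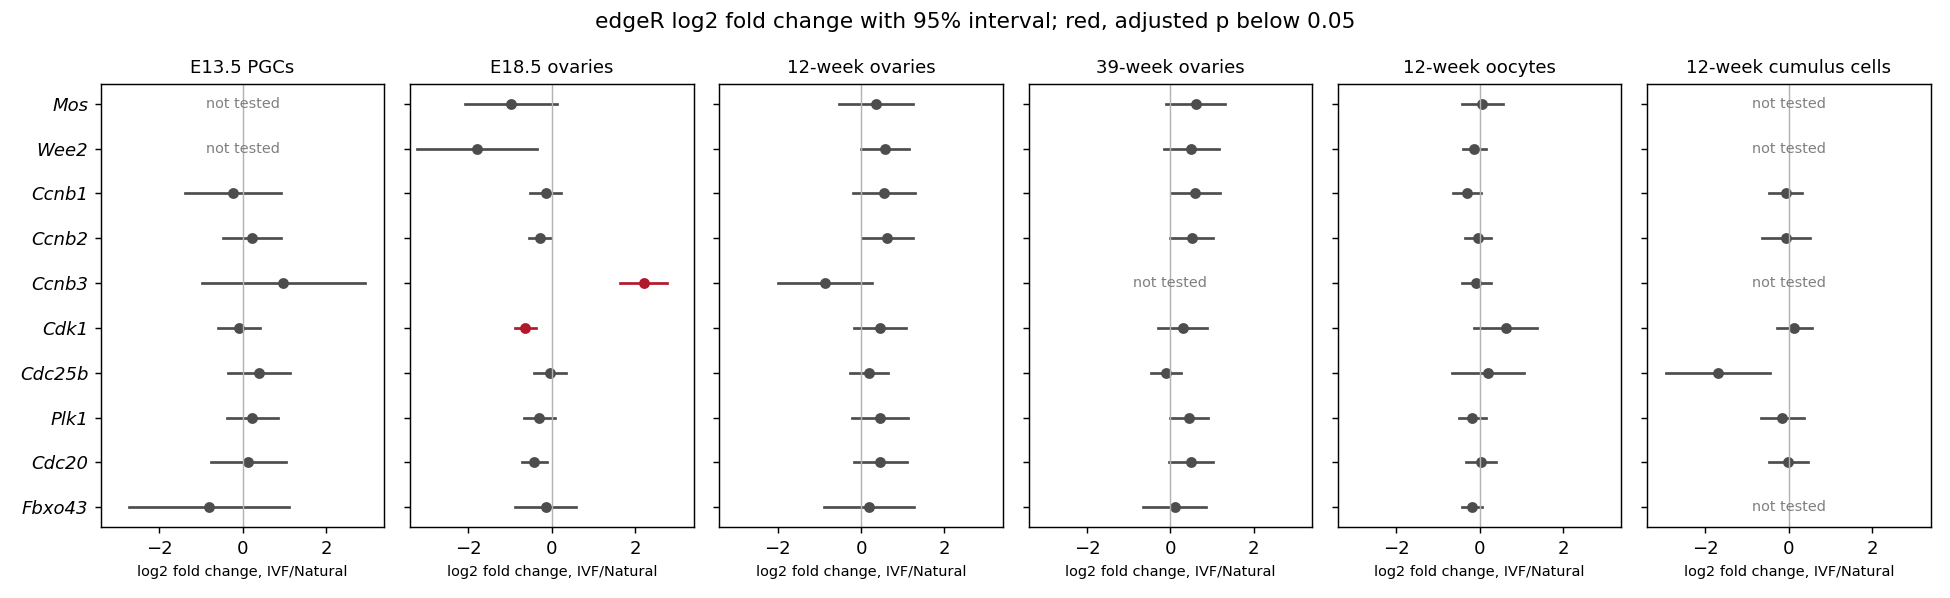
Log2 fold change of IVF over Natural with its 95% interval for the 10 genes in the 6 tested tables; red marks an adjusted p below 0.05 in edgeR, and the 39-week oocytes are absent because no test was made. Only Ccnb3 and Cdk1 in E18.5 ovaries are red.

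In E13.5 PGCs, which still divide or have just entered meiosis, edgeR called 0 of 12763 genes (0%) and 0 of the 8 genes tested, none of them with an unadjusted p below 0.05 (2.73% of all genes), and DESeq2 called 0 of them. Mos and Wee2 were too low to be tested. Natural replicate 2 stood apart from the other 8 libraries. It was lowest of all for Ccnb1 (248 CPM), Ccnb2 (230 CPM), Cdc20 (314 CPM), Plk1 (115 CPM) and Cdk1 (66.4 CPM), and highest for Wee2 (1.77 CPM) and Fbxo43 (8.96 CPM), and also for Cdc25b, which reached 16.2 CPM in the others. It was also highest for Stra8, the meiotic entry gene, at 627 CPM, where the others ran from 0 to 189 CPM, and for Sycp3, at 105 CPM, where they ran from 8.03 to 32.6 CPM. Of the other germ cell markers, Dppa3 (356 CPM) and Pou5f1 (72.05 CPM) were lowest there, and Ddx4 and Dazl lay within the range of the others.

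Ccnb3 was at 0.492, 7.09, 0.357 and 0.441 CPM in Natural PGCs, the second being this library, and at 2.96, 3.53, 9.98, 2.06 and 3.20 CPM in IVF PGCs. The other 3 Natural libraries held 2 Ccnb3 counts each. The log2 fold change was 0.98 (interval -0.97 to 2.93, edgeR adjusted p = 1.00), and without Natural replicate 2 it was 3.32, not called. Stra8 in those 3 Natural libraries was at 30.5, 0 and 2.20 CPM, and in IVF libraries at 56.5 to 189 CPM. Sycp3 overlapped, at 24.9, 8.03 and 8.15 CPM in those Natural libraries and at 14.1 to 32.6 CPM in IVF libraries. Ddx4, Dazl, Dppa3 and Pou5f1 also overlapped between them. The part of the stage of the cells in this difference was not tested.

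In cumulus cells edgeR called 1 of 11080 genes (0.00903%) and 0 of the 6 genes tested, 1 of which had an unadjusted p below 0.05, as 5.97% of all genes did, and DESeq2 called 0. That gene was Cdc25b, at 10.6, 5.15, 4.20, 1.94 and 4.12 CPM in Natural and 0, 0.842, 2.73, 1.32 and 2.94 CPM in IVF libraries, with 3 of 5 IVF libraries below every Natural one. Its log2 fold change was -1.69 (interval -2.94 to -0.44, edgeR adjusted p = 0.689), on at most 44 counts a library, and it was -1.63 without Natural replicate 5, whose name fields match an IVF oocyte set. Ccnb1, Ccnb2, Cdk1, Cdc20 and Plk1 had log2 fold changes between -0.16 and 0.13. Mos was at 0 in Natural replicates 1 and 2 and IVF replicates 4 and 5, where the oocyte markers summed to at most 1.21 CPM, and at 0.699 to 2.12 CPM in the other 6 libraries, where they summed to 16.8 to 38.1 CPM. Cumulus cells at 39 weeks were not analysed here.

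Of 48 further genes of the pathway, few moved. In E18.5 ovaries 3 of 47 tested genes fell and 0 rose, where 2.75% and 2.67% of all genes did: Ube2c, the ubiquitin-conjugating enzyme of the anaphase-promoting complex, at 141 ± 32.9 and 67.7 ± 16.7 CPM (log2 fold change -1.06, edgeR adjusted p = 0.0129); Fzr1, the coactivator that keeps that ligase active in prophase arrest, at -0.44 (adjusted p = 0.0323); and Skp1a, an adaptor of SCF ligases, at -0.70 (adjusted p = 0.0332). In the list 17 of 47 log2 fold changes were above 0, as were 50% of all genes, with a median of -0.10 against 0.00. In PGCs (46 tested), 12-week ovaries (48), 39-week ovaries (47), 12-week oocytes (47) and cumulus cells (44) none was called in edgeR. In 39-week oocytes 9 of 47 were higher and 6 lower by more than 1.5-fold in the mean, where 15.9% and 18.9% of all genes were.

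Over the 14 group means, the gene whose profile was most like that of Mos was Cpa1 (Pearson r of log2(mean CPM + 1) = 0.998, over 20284 genes), which was also nearest to Wee2 (r = 0.996). For Cdc20 and Ccnb2 it was Aurka, the aurora A kinase, with r = 0.995 and 0.980, and for Plk1 it was Cdca8, the chromosomal passenger protein borealin, with r = 0.997. Ccnb1 was nearest to Gm5593 (0.992), Fbxo43 to Il31ra (0.995), Cdk1 to Dmap1 (0.986), Ccnb3 to 1700018B24Rik (0.973), and Cdc25b to Lrrc4 (0.966). These are likenesses of level over 14 points that share tables in pairs.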

How the data were processed

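RNA-seq libraries of PGCs, ovaries, single oocytes and cumulus cells were measured. The authors deposited raw counts per gene in 7 tables. Per the study's methods, reads of the low-input libraries were trimmed, aligned to mm10 with STAR and counted with featureCounts. The submitters' processing notes list Trimmomatic 0.32, STAR 2.3.0e, featureCounts 1.5.0 and DESeq2 without saying which step they served, and the aligner of the ovary libraries is not given in the sources used here. Low-input libraries were made by a modified SMART-seq method, which does not mark strand, and ovary libraries with a stranded kit.

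From these counts, each table was filtered with filterByExpr, scaled by TMM and fitted with the quasi-likelihood test of edgeR 4.0.16 in R 4.3.3, with Benjamini-Hochberg adjustment over all genes tested and a threshold of 0.05. Single 12-week oocytes were summed per name set (5 against 5), since the labels tie no oocyte to an animal. Cumulus cells had the style of the library name as a covariate. At 39 weeks the means of CPM over oocytes were compared, with a fold of 1.5 and no test. DESeq2 1.42.0, another scaling, no filter, a replicate block and leaving out each replicate were tried as alternatives. In 12-week oocytes, counts summed per first name field were also tried. The edgeR steps were tested on simulated data. Correlations of same-numbered samples were computed in 5 tables. They ran from -0.0683 to 0.536 in PGCs, -0.132 to 0.0104 in E18.5 ovaries and -0.357 to 0.252 in 12-week ovaries. In 39-week ovaries they ran from -0.00621 to 0.399 and in cumulus cells from -0.321 to 0.172. Differently numbered samples were not compared, so these values cannot decide whether the numbers pair samples. The main fits did not treat them as pairs.

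The 10 genes, the 48 pathway genes and the marker lists were chosen with earlier results of these data known. The text names the 10 genes, called genes of the pathway list, the gene most alike in profile to each of the 10, and marker genes. Ooep, Padi6, Bmp15, Stra8, Dazl and other single markers were named after their values were seen. Cumulus cells at 39 weeks were not analysed here.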

Additional observations from a re-analysis of the deposited data

Results flagged for a closer look

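In 13 of 140 combinations of a gene and a group of 4 to 10 samples, the highest or the lowest sample lay farther from its nearest neighbor, relative to the range of the group, than Dixon's 95% limit allows. That limit would mark about 1 in 20 groups of normally distributed values. The CPM values were not transformed, some groups are mostly 0, and the combinations share libraries. The 13 can therefore not be set against that rate. Natural PGC replicate 2 was marked for Mos (0.197 CPM), Ccnb3 (7.09 CPM) and Wee2 (1.77 CPM), and IVF PGC replicate 3 for Ccnb3 (9.98 CPM). In ovaries, the marked values were Plk1 in E18.5 Natural replicate 3 (75.5 CPM), Ccnb3 in 39-week Natural replicate 5 (0.319 CPM), Cdc25b in 39-week IVF replicate 1 (24.6 CPM), and Fbxo43 in 39-week Natural replicate 1, the lowest of its group (0.582 CPM). The last IVF ovary was the one with the high oviduct and epithelium sum, 8798 CPM.

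In 12-week oocytes, set 126_4 was lowest of the IVF sets for Ccnb2 (92.2 CPM) and set 35_3 highest of the Natural sets for Cdc25b (39.3 CPM). Both sets held divergent libraries. In 39-week oocytes, Natural replicate 9, itself divergent, was highest for Cdk1 (13.1 CPM) and IVF replicate 8 for Cdc20 (1040 CPM). In cumulus cells IVF replicate 1 was highest for Ccnb3, with 0.353 CPM from 1 count.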

How the results depend on the processing

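Of 1186 values of the 10 genes under the alternatives, 1182 counted as unchanged and 0 reversed a call. The sign changed in 95 values that were not called. Unchanged means the same side of the threshold, except in 39-week oocytes. There it means a shift in log2 ratio smaller than the pooled SD of log2(CPM + 1) between oocytes. Such a value could still cross 1.5-fold. The log2 ratio of Ccnb3 there ran from 0.28 to 0.93 over the alternatives, and that of Cdc25b from -1.22 to -0.36. In E18.5 ovaries the count of called genes was 2 when any ovary was left out, 3 with DESeq2 and 1 with the replicate block, under which Cdk1 lost its call (log2 fold change -0.69, adjusted p = 0.194) and Ccnb3 kept it (adjusted p = 0.0436). The cause was not tested. The block changed no other call of the 10 genes. In E18.5 ovaries it left out IVF replicates 5 and 6, whose numbers no Natural ovary has. The share of all genes called by DESeq2 or under the block was not recorded for any table. Nor was it recorded for sums per first name field, or for the fold of 1.5 under the alternatives in 39-week oocytes. Counts from these alternatives therefore have no such share beside them. Same-numbered E18.5 ovaries correlated at -0.132 to 0.0104. Differently numbered ovaries were not compared, so these values cannot decide whether the numbers mark pairs. No block was fitted for 12-week oocyte sets, whose names share some second fields but no first field between groups, or for the comparison of ages. In 39-week oocytes 2 genes were past 1.5-fold. The count was 4 from summed counts and 1 without the divergent libraries, an alternative chosen after seeing the data, and it ranged from 1 to 3 when single oocytes were left out. It was 1 without Natural replicate 4, 6 or 8, or without IVF replicate 2, 3, 6 or 10. Cdk1 there moved from a log2 ratio of -0.18 to 1.24 by medians and to 0.97 without Natural replicate 9. The counts of called genes in all other comparisons stayed at 0 under every alternative run. Cdk1 in oocytes and Mos, Wee2, Ccnb3 and Fbxo43 outside them rest on few counts.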
